A study of Mus musculus with 18 samples.

Results

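The 50 proteasome genes described here are the rows of a deposited expression table whose symbol starts with Psma, Psmb, Psmc, Psmd, Psme, Psmf or Psmg followed by a digit, with symbols containing -ps (pseudogenes) left out. They are 50 of 36528 rows. A gene was tested when it reached a normalised RPKM (nRPKM, reads scaled by transcript length and library depth, as normalised by the authors) of at least 1 in at least 3 of 18 libraries, which kept 48 of the 50 genes and 13075 genes in all. The rule also takes Psmc3ip, which encodes a recombination factor that is not a proteasome subunit, and Psme2b, a retrocopy of the activator gene Psme2.

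The proteasome is the protease that degrades proteins tagged with ubiquitin. Its barrel-shaped 20S core consists of outer alpha rings, which gate entry, and inner beta rings, in which Psmb5, Psmb6 and Psmb7 encode the catalytic subunits. The 19S particle caps the barrel: its base holds the ATPases that unfold substrates, and its lid holds the deubiquitinase Psmd14 and scaffold subunits. In immune cells the catalytic subunits can be replaced by the products of Psmb8, Psmb9 and Psmb10, which are known to be induced by interferon gamma and to favour the release of peptides for presentation on MHC class I. Activated T cells are known to enlarge their protein synthesis and degradation machinery as they grow and divide.

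The libraries were made from splenic CD4 T cells of female NZB/W F1 mice, the hybrid of NZB and NZW strains that develops a lupus-like disease. The mice were 21 to 27 weeks old with proteinuria of 30 to 100 mg/dL, and the cells, purified with a negative isolation kit, were kept for 48 hours in wells of 250000 cells that held 10 U/mL IL-2. The 6 groups were anti-Ox40 and control Ig cultures without beads, with low beads and with high beads, each with 3 libraries. Anti-Ox40 was an IgG1 antibody to the costimulatory receptor Ox40, and control Ig was an isotype-matched IgG1, both at 25 µg/mL. Beads carrying antibodies to CD3 and CD28, which stimulate the T cell receptor and a costimulatory receptor, were left out (no beads) or added at a ratio to cells of 0.1 (low beads) or 1 (high beads). Every group, controls included, thus received IL-2 and an IgG1 antibody. No label states if the 3 replicates of a group are separate mice, separate cultures or parts of a pool. A p-value therefore reflects the variation among these libraries alone, which may be technical. Replicate numbers are names in accession order.

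The deposited values of a library summed to 273498 to 348466 nRPKM, and 11763 to 12261 genes per library had at least 1 nRPKM. Low values were whole multiples of a unit that puts 1 nRPKM over 1 kb at 26.4 to 46.0 reads per library. Markers of CD4 T cells were high in every library (7 of 8 listed genes in the table, summed level 1352 to 1699 nRPKM), and the CD8 T cell list (2 genes) summed to 4.36 to 6.95 nRPKM. Il2ra, an activation marker, averaged 650 ± 49.2 nRPKM at high beads and 79.4 ± 5.51 without beads in control Ig cultures (SD, n = 3). The control Ig low-bead libraries differed among themselves. Malat1, a nuclear RNA, was at 173 nRPKM in replicate 2, against 453 and 435 in replicates 1 and 3. Xist, another nuclear RNA, was at 83.9 nRPKM in replicate 2, against 148 and 143, which lay above every other library. The anti-Ox40 low-bead libraries had 213 to 254 nRPKM of Malat1 and 91.9 to 98.7 nRPKM of Xist. In each of the 6 groups, replicate 3 had the highest summed B cell markers. Counts that rest on these libraries are given with and without them.

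Levels of the proteasome genes spanned a wide range (all per length, so that genes can be set side by side). The 3 highest over the 18 libraries were Psmb8 at a mean of 258 nRPKM, Psme1, which encodes the alpha subunit of the PA28 activator, at 231 nRPKM and the core subunit gene Psmb4 at 146 nRPKM. The 3 lowest were Psmb11, the thymus-specific core subunit, at 0.00683 nRPKM, Psma8, the testis-specific alpha subunit, at 0.162 nRPKM, and Psma5, a subunit of every core, at 3.15 nRPKM. Psma8 and Psmb11 never reached 1 nRPKM in any library and are the 2 genes left untested. The low level of Psma5 cannot be read as little RNA, because 55.4% of its 50-base transcript windows also occur in other annotated genes, mostly processed pseudogenes, and how such reads were counted is not stated in the sources used here. The same holds for Psmb5 at 5.65 nRPKM (57.1% of windows shared), Psmb3 at 18.7 nRPKM (55.8%), Psme2 at 18.9 nRPKM (59.3%) and Psme2b at 70.0 nRPKM (69.3%), the last pair sharing mostly with each other. In all, 26 of the 50 genes had such a window and 9 had more than 25% of them. Among the immunoproteasome genes the share was 0.0% for Psmb10 and 5.8% for Psmb8. It was 12.5% for Psmb9, in transcripts that overlap Tap1, so reads of this stretch cannot be told apart between Psmb9 and Tap1 unless the counting used strand, and no source used here states that.

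The immunoproteasome genes Psmb8 and Psmb9 lie on either side of Tap1 on mouse chromosome 17, in the MHC region, and Psmb9 shares its upstream stretch with Tap1, the peptide transporter gene, whose start lies 226 bases away on the opposite strand. That shared stretch, a window before Psmb8, one before Psmb10 and, for contrast, windows before the constitutive catalytic gene Psmb5 and the lid gene Psmd12 are printed because these genes differed in the size of their bead response. Sequences are from RefSeq (GRCm38.p6), 5′ to 3′ on the strand of the gene, and end at the base before its start. In the first 3, capitals mark matches of the NF-kB motif (GGG and CC with any 5 bases between), the interferon-stimulated response element (GAAA and GAAA with any 2 between), TTCNNNGAA (STAT site) or CACGTG (E-box), and in the last 2 matches of TGANNNNGC (antioxidant response element, the motif bound by Nfe2l1 and Nfe2l2) or CCAAT.
Psmb9 (chr17:34187331-34187555, minus strand): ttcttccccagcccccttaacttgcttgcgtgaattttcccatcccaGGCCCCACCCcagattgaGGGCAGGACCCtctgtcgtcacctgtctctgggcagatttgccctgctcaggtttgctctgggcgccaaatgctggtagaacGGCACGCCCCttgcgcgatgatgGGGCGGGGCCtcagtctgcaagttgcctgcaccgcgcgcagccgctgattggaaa
Psmb8 (chr17:34198045-34198194, plus strand): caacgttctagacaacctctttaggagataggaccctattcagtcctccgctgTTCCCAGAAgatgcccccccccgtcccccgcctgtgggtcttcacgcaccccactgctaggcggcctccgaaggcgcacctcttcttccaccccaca
Psmb10 (chr8:105938393-105938542, minus strand): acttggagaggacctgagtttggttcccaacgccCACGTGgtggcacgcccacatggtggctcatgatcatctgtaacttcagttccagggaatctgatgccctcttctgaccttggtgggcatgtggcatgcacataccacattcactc
Psmb5 (chr14:54617996-54618145, minus strand): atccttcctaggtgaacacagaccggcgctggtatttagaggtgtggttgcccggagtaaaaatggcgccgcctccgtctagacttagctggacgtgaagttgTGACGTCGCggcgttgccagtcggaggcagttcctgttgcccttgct
Psmd12 (chr11:107479378-107479527, plus strand): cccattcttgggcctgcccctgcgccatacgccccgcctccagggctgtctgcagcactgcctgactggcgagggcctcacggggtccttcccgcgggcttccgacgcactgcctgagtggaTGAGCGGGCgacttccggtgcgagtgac

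The Psmb9 stretch holds 5 matches of the NF-kB motif, of which 2 overlap each other and 1 overlaps a match of TGANNNNGC. The capitals do not compare the windows, since different motifs were marked in them. The Psmd12 window also holds NF-kB motif matches, left unmarked, that begin 141, 140, 68 and 67 bases before the start. The Psmb9 stretch holds an unmarked CCAAT match 8 bases before the start. Such matches are common. Both strands of the 250 bases before the start were searched for 42 of the 50 genes, and 35.7% of these held TGANNNNGC, against 35.1% of the same windows of 27025 genes. The shares were 52.4% against 45.4% for the NF-kB motif, 35.7% against 34.5% for CCAAT, 9.52% against 6.05% for CACGTG, 7.14% against 3.04% for the interferon-stimulated response element and 4.76% against 7.18% for TTCNNNGAA. The interferon-stimulated response element was found in 3 genes, Psmb3, Psmd4 and Psmd9. It was in 0 of the 5 genes Psmb8, Psmb9, Psmb10, Psme1 and Psme2. A match of these letters is no evidence of a bound factor.

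Immunoproteasome RNA rose with the first bead dose. With the second, Psmb10 fell, while Psmb8 and Psmb9 rose further with control Ig and were not called with anti-Ox40. A difference between the antibodies in this second step was not shown. The antibody effect, high minus low beads, was -0.20 to -0.13 (log2) for the 3 genes and called 0 of them. Psmb8 had 191, 176 and 189 nRPKM in anti-Ox40 cultures without beads, against 198, 180 and 180 in control Ig cultures. At low beads it had 284, 283 and 294 nRPKM with anti-Ox40, against 263, 300 and 269 with control Ig. At high beads it had 288, 319 and 290 nRPKM with anti-Ox40, against 309, 310 and 326 with control Ig. All bead-treated libraries thus lay above all libraries without beads, and the antibody groups overlapped at each dose. Low against no beads raised Psmb8 by 0.63 on the log2(nRPKM + 1) scale with anti-Ox40 and by 0.57 with control Ig (limma adjusted p = 1.11e-07 and 4.58e-07). High against low beads differed by 0.06 with anti-Ox40 (adjusted p = 0.392) and by 0.19 with control Ig (adjusted p = 0.00952), and with libraries scaled to equal sums these became -0.12, called lower (adjusted p = 0.035), and -0.014.

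Psmb9 had 57.6, 49.5 and 56.9 nRPKM in anti-Ox40 cultures without beads, against 57.7, 47.0 and 51.6 in control Ig cultures. It had 99.3, 96.0 and 106 nRPKM at low beads with anti-Ox40, against 98.3, 106 and 96.7 with control Ig. The high-bead values were 111, 115 and 109 nRPKM with anti-Ox40, against 126, 124 and 133 with control Ig. Low against no beads raised Psmb9 by 0.87 with anti-Ox40 and by 0.93 with control Ig, and high against low beads differed by 0.15 (limma adjusted p = 0.0646) and 0.35 (adjusted p = 0.000325). With libraries scaled to equal sums the anti-Ox40 value at high against low beads was -0.022 (limma adjusted p = 0.773). At high beads, and at no other dose, the anti-Ox40 libraries all lay below the control Ig libraries. The difference was -0.19 (log2, SE 0.07) and missed the threshold (limma adjusted p = 0.0512). It was called in 10 of 29 alternative settings, with values between -0.27 and -0.15 and adjusted p between 0.0055 and 0.346. These settings include leaving out a library of another bead dose, which keeps the difference at -0.19. They also include the replicate number as a block (called, limma adjusted p = 0.0464), though no label says that these numbers pair libraries. Leaving out any library of the high-bead groups lost significance further, with limma adjusted p between 0.069 and 0.166.

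Psmb10 peaked at low beads. It had 44.6, 43.1 and 48.5 nRPKM in anti-Ox40 cultures without beads, against 46.0, 45.5 and 40.7 with control Ig. At low beads the values were 68.6, 69.3 and 72.3 nRPKM with anti-Ox40, against 63.3, 75.3 and 65.3 with control Ig. At high beads they were 53.4, 59.6 and 54.1 nRPKM with anti-Ox40, against 55.1, 61.3 and 63.5 with control Ig. No anti-Ox40 library at high beads reached the lowest one at low beads, while the control Ig libraries of the 2 doses overlapped by 1 value. High against low beads lowered Psmb10 by 0.33 with anti-Ox40 (limma: log2 -0.33, SE 0.07, adjusted p = 0.000786) and by 0.18 with control Ig (-0.18, SE 0.07, adjusted p = 0.0383). The control Ig call was lost with no filter, in a fit without the other groups and without low-bead replicate 2 (log2 -0.10), high-bead replicate 1 (-0.12) or high-bead replicate 2 (-0.19). High against no beads it was still higher, by 0.29 with anti-Ox40 and 0.44 with control Ig, but the anti-Ox40 value was -0.025 when libraries were scaled to equal sums.

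**Figure D1:**
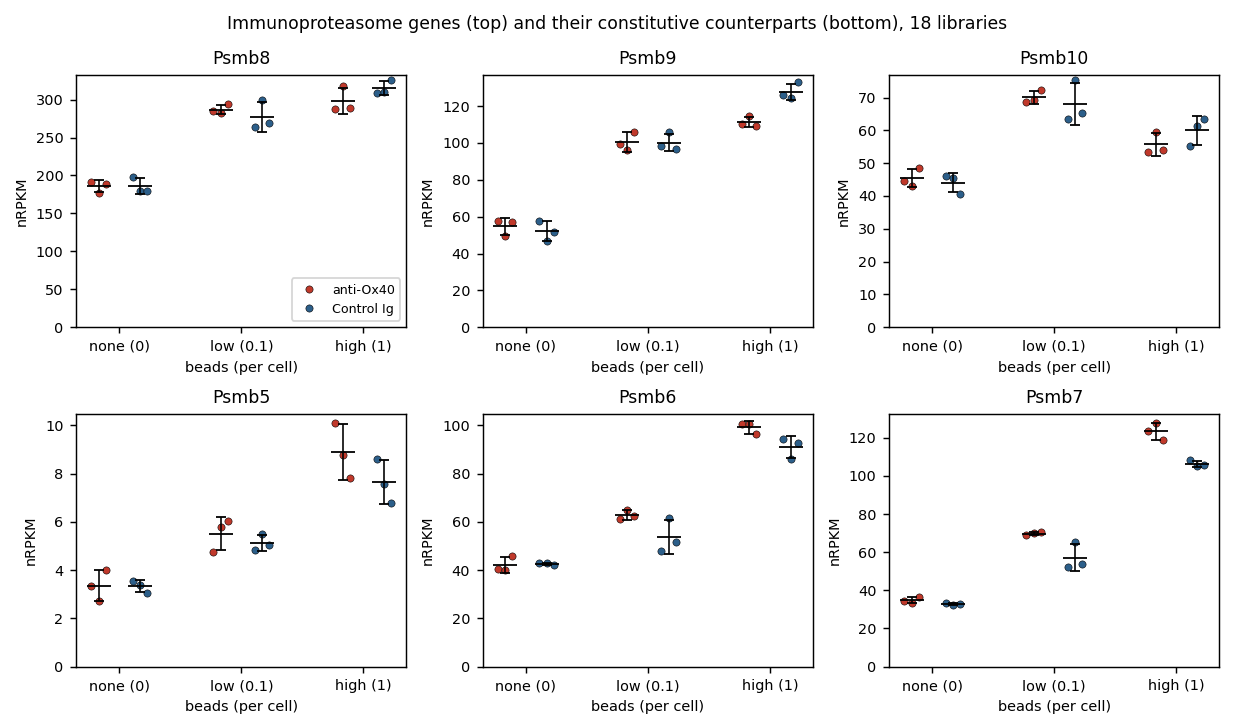
Levels in nRPKM (linear axes from 0) of the immunoproteasome genes Psmb8, Psmb9 and Psmb10 (top) and of their constitutive counterparts Psmb5, Psmb6 and Psmb7 (bottom) by bead dose; points are libraries, bars mean ± SD of 3, with anti-Ox40 (red) left of control Ig (blue). Psmb10 is highest at low beads, while Psmb7 goes on rising to 123 ± 4.44 nRPKM with anti-Ox40 and 106 ± 1.61 with control Ig at high beads.

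The constitutive counterparts rose at both steps. Psmb5, replaced by Psmb8 in the immunoproteasome, had 3.35, 2.72 and 3.995 nRPKM without beads with anti-Ox40, against 3.54, 3.39 and 3.07 with control Ig. It had 4.74, 5.77 and 6.03 nRPKM at low beads with anti-Ox40, against 4.82, 5.499 and 5.06, and at high beads 10.1, 8.78 and 7.82 with anti-Ox40, against 8.61, 7.58 and 6.79 with control Ig. The antibody groups overlapped at each dose, and the doses did not overlap within either antibody. Psmb6, replaced by Psmb9, had 40.3, 40.2 and 46.0 nRPKM without beads with anti-Ox40, against 42.8, 43.0 and 42.3 with control Ig. Its low-bead values were 61.0, 64.9 and 62.4 nRPKM with anti-Ox40, against 48.1, 61.8 and 51.7, where control Ig replicate 2 alone fell in the anti-Ox40 range. Its high-bead values were 101, 101 and 96.2 nRPKM with anti-Ox40, against 94.5, 85.98 and 92.8 with control Ig, which did not overlap (log2 0.12, limma adjusted p = 0.241).

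Psmb7, replaced by Psmb10, had 34.5, 33.5 and 36.6 nRPKM without beads with anti-Ox40, against 33.5, 32.1 and 32.9 with control Ig. It had 68.8, 70.0 and 70.5 nRPKM at low beads with anti-Ox40, against 52.1, 65.5 and 54.0 with control Ig. At high beads it had 124, 128 and 119 nRPKM with anti-Ox40, against 108, 105 and 106 with control Ig. It was the only catalytic gene of the core called for the antibody at both doses, with log2 changes of 0.29 (SE 0.06, limma adjusted p = 0.0161) at low and 0.21 (SE 0.06, adjusted p = 0.022) at high beads. In the annotation 28.1% of the Psmb7 windows also occur in its overlapping neighbour Nek6.

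As a description, each immunoproteasome gene was set against its counterpart within every library. The log2 ratio of Psmb10 to Psmb7 was -1.15 ± 0.06 with anti-Ox40 and -0.83 ± 0.13 with control Ig at high beads (SD, n = 3), against 0.38 ± 0.02 and 0.42 ± 0.10 without beads. By these values Psmb10 RNA exceeded Psmb7 RNA without beads and was below it at high beads in all 6 libraries. The sign without beads is uncertain, because 28.1% of the Psmb7 windows also occur in Nek6 and the counting of such reads is not stated. The ratio of Psmb9 to Psmb6 went the other way at the first dose, to 0.68 ± 0.10 with anti-Ox40 and 0.90 ± 0.13 with control Ig at low beads, against 0.37 ± 0.12 and 0.28 ± 0.15 without beads. At high beads it was 0.17 ± 0.03 with anti-Ox40 and 0.49 ± 0.06 with control Ig. The ratio of Psmb8 to Psmb5 was 5.08 ± 0.21 with anti-Ox40 and 5.37 ± 0.21 with control Ig at high beads, against 5.81 ± 0.23 and 5.80 ± 0.07 without beads, and its size is uncertain because reads of Psmb5 may go to its copies.

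All 3 ratios had a lower mean with anti-Ox40 than with control Ig at high beads, with log2 differences of -0.32 for Psmb10 to Psmb7, -0.32 for Psmb9 to Psmb6 and -0.29 for Psmb8 to Psmb5. The libraries of the antibody groups did not overlap for the first pair of ratios and overlapped for Psmb8 to Psmb5. At low beads the differences were -0.25, -0.22 and -0.05, and without beads -0.04, 0.09 and 0.00. These ratios are a description, and no test of them was made.

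**Figure D2:**
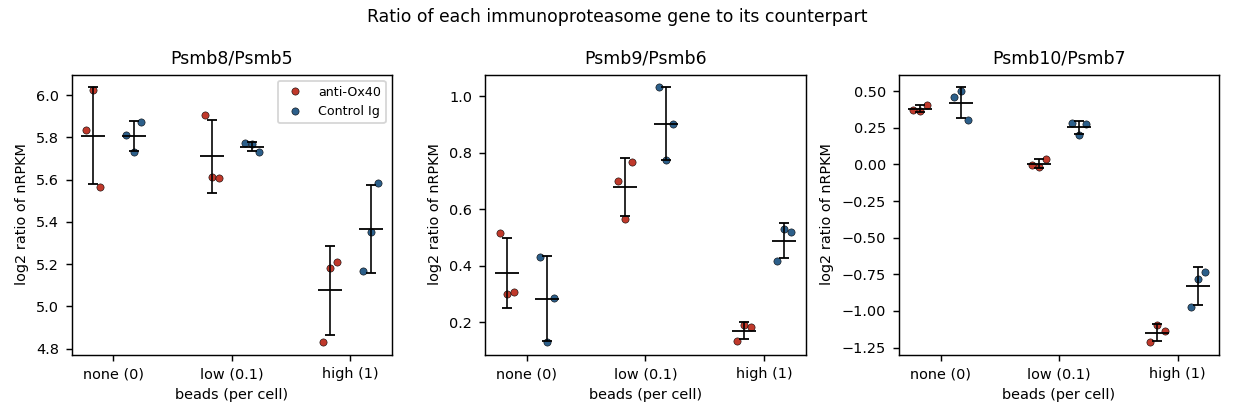
Log2 ratio of nRPKM within each library for Psmb8 over Psmb5, Psmb9 over Psmb6 and Psmb10 over Psmb7 by bead dose; points are libraries, bars mean ± SD of 3, anti-Ox40 (red) left of control Ig (blue), with axes that do not start at 0. At high beads Psmb10 over Psmb7 lies between -1.21 and -1.10 with anti-Ox40, below the control Ig libraries at -0.98 to -0.73.

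Across all proteasome genes, bead stimulation raised RNA in a graded way. Their summed share of the nRPKM of a library was 0.688 ± 0.015% without beads, 0.989 ± 0.019% at low and 1.25 ± 0.028% at high beads with anti-Ox40, and 0.675 ± 0.013%, 0.908 ± 0.048% and 1.16 ± 0.026% with control Ig (SD, n = 3). High against no beads called all 48 tested genes higher with either antibody, by limma with Benjamini-Hochberg adjustment. Of all 13075 genes, 45.2% were called higher in that comparison with anti-Ox40 and 43.4% with control Ig. The median log2 change of the 48 was 1.22 with anti-Ox40 and 1.09 with control Ig, against 0.06 and 0.04 over all genes. With libraries scaled to equal sums the medians over all genes were -0.20 and -0.21 and those of the proteasome genes 0.92 and 0.80. Then 44 genes were higher with anti-Ox40, with Psmb10 at -0.025, and 44 were higher and 1, Psmd5, was lower (-0.10) with control Ig.

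Low against no beads called 47 of 48 genes higher with anti-Ox40 (37.1% of all genes were) and 46 with control Ig (32.6%), with medians of 0.63 and 0.45. The exceptions were Psme4 with anti-Ox40 (-0.03) and Psmd4 (-0.01) and Psmd5 (0.00) with control Ig. High against low beads called 42 higher and 1 lower with anti-Ox40 (40.3% and 31.2% of all genes) and 45 higher and 1 lower with control Ig (40.0% and 32.5%). The 1 lower gene was Psmb10 in both. Several marker lists moved along with these contrasts, in both directions. Lung epithelium transcripts (6 of 6 genes in the table) summed to 0.037 to 0.084 nRPKM without beads and 29.1 to 53.7 at high beads with anti-Ox40. With control Ig they summed to 0 to 0.107 and 31.0 to 121. The NK cell list (7 of 7) summed to 41.2 to 52.4 and 73.5 to 121 nRPKM with anti-Ox40, and 43.2 to 51.3 and 53.8 to 85.6 with control Ig. This rise lay in Gzma, with means of 10.2 and 92.6 nRPKM with anti-Ox40 and 10.9 and 65.7 with control Ig. Klrd1 fell from 30.6 to 1.86 nRPKM with anti-Ox40 and from 30.1 to 2.94 with control Ig. Klrb1c, Eomes and Ncr1 also fell with both antibodies, and Klra8 and Klre1 stayed under 1 nRPKM. Plasma cell markers (5 of 6 genes in the table) summed to 84.3 to 103 nRPKM without beads and 8.03 to 12.7 at high beads with anti-Ox40, and 84.03 to 112 and 9.55 to 14.5 with control Ig. Platelet markers (6 of 6) summed to 76.4 to 104 and 22.1 to 30.8 nRPKM with anti-Ox40, and 76.8 to 95.8 and 42.5 to 51.8 with control Ig. Nuclear RNA (6 of 6) summed to 587 to 858 and 192 to 218 nRPKM with anti-Ox40, and 512 to 667 and 248 to 294 with control Ig. With nuclear RNA as a covariate the proteasome medians at high against low beads were 0.37 with anti-Ox40 and 0.41 with control Ig, against 0.60 and 0.62 without it. Of 8 myeloid markers 7 were in the table, and their summed level was 239 to 339 nRPKM without beads, 15.998 to 30.04 at low and 5.69 to 6.78 at high beads with anti-Ox40, and 253 to 287, 20.6 to 26.6 and 5.45 to 11.2 with control Ig. The part of these cell markers in the proteasome results was not tested, and in such bulk samples fewer cells of a type and less RNA per cell cannot be told apart.

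The largest rises were in a small set of genes. At high against no beads, Psmb2, a structural beta subunit, rose by 1.85 with anti-Ox40 and 1.70 with control Ig (SE 0.06 each). Its values without beads were 46.1, 46.7 and 46.2 nRPKM with anti-Ox40, against 48.4, 46.0 and 46.0 with control Ig, and at high beads 173, 170 and 167 against 153, 147 and 165. Psmb7 rose by 1.79 and 1.67, and Psmd14, the lid deubiquitinase that removes ubiquitin chains from substrates, by 1.71 and 1.54. Psmc3ip, outside the proteasome, rose most, by 1.95 with anti-Ox40 and 2.09 with control Ig, and shares 27.1% of its windows with the overlapping gene Mlx. At low against no beads Psmc3ip (1.36), Psmb2 (1.16), Psmd14 (1.08) and the alpha subunit gene Psma2 (0.98) led with anti-Ox40. Psmc3ip (1.26), Psmb9 (0.93), Psmd14 (0.93) and Psmg1, a chaperone of alpha ring assembly (0.88), led with control Ig. High against low beads, the chaperone gene Psmg3 (0.90), Psmd3 (0.82), Psmb7 (0.81) and Psmd7 (0.80) led with anti-Ox40, and Psmb7 (0.89), Psmb2 (0.87), Psmg3 (0.84) and Psmc3ip (0.83) led with control Ig.

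By role, the outer and inner rings of the core and the 19S particle moved by similar amounts. The median log2 change at high against no beads was 1.40 and 1.27 (anti-Ox40, then control Ig) for 7 alpha subunits, 1.22 and 1.08 for 7 constitutive beta subunits, 1.26 and 1.07 for 6 base ATPases and 1.40 and 1.13 for 8 lid subunits. Smaller medians belonged to 7 assembly chaperones (1.02 and 0.86), 3 immunoproteasome genes (0.68 and 0.76) and 5 activator or inhibitor genes (0.42 and 0.48). The smallest rises with control Ig were those of Psmd5, a chaperone that binds the ATPase Psmc2 (0.19), Psmf1, the proteasome inhibitor PI31 (0.29), Psmd4, a ubiquitin receptor of the base (0.32), and Psme4, which encodes the activator PA200 (0.35). Roles also differed in how much of the rise was reached at the low dose. The median share of the high-bead log2 change already present at low beads was 91.7% for the immunoproteasome genes with anti-Ox40 and 75.5% with control Ig. These medians are of 3 genes, among them Psmb10 at 213% and 141%, which was lower at high than at low beads. The share was 76.9% and 63.2% for the retrocopy Psme2b and a median of 66.6% and 61.1% for activator or inhibitor genes. It was 52.3% and 35.5% for alpha subunits and 46.0% and 35.6% for lid subunits.

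**Figure D3:**
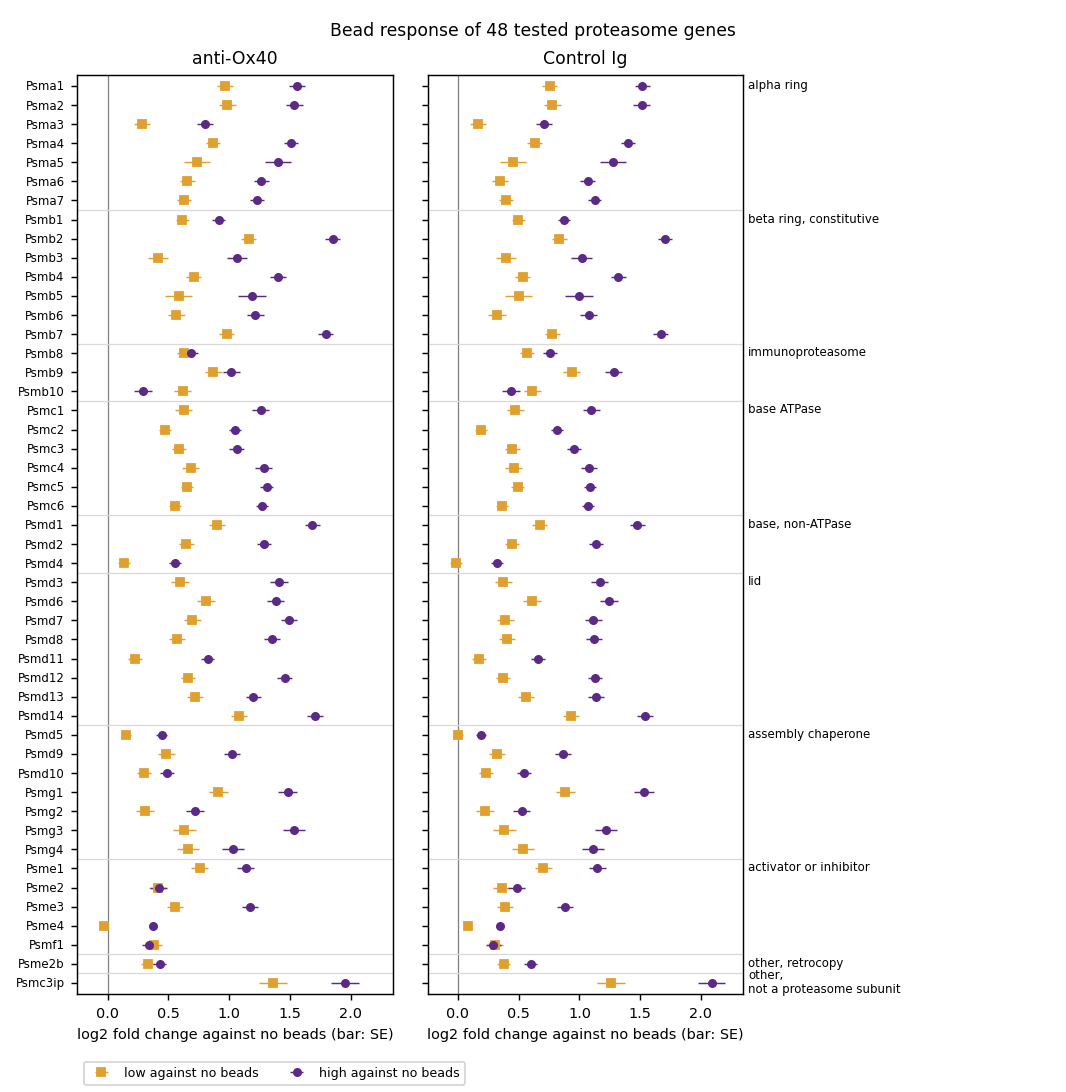
Log2 fold change of nRPKM + 1 against cultures without beads for the 48 tested genes, by role, with anti-Ox40 (left panel) and control Ig (right panel); squares are low beads, circles high beads, bars SE. Most genes step up again between the doses, while Psme2 and Psmf1 show little or no second step and Psmb10 steps down. Psmb8 has a small second step (0.06 with anti-Ox40, 0.19 with control Ig). Psmd4, Psmd5 and Psme4 lie between -0.03 and 0.15 at low beads.

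The activators behaved unlike each other. Psme1 had 146, 135 and 146 nRPKM without beads with anti-Ox40, against 146, 143 and 134 with control Ig. At low beads it had 243, 245 and 237 nRPKM with anti-Ox40, against 216, 267 and 211, and at high beads 308, 328 and 308 against 307, 320 and 313. The doses did not overlap and the antibody groups did, with an antibody difference of 0.00 (log2) at high beads. Psme2, its PA28 partner, rose by 0.41 and 0.36 at low against no beads with anti-Ox40 and control Ig, and differed by 0.01 and 0.12 at high against low beads (limma adjusted p = 0.915 and 0.13). With equal-sum scaling the last 2 became -0.16, called lower (adjusted p = 0.0396), and -0.068. Its values were 15.5, 15.9 and 13.8 nRPKM without beads with anti-Ox40, against 15.5, 15.2 and 15.5 with control Ig. They were 20.1, 20.1 and 20.8 nRPKM at low beads with anti-Ox40, against 18.8, 22.4 and 19.2, and 18.8, 22.8 and 19.98 at high beads, against 21.9, 21.0 and 23.0. The antibody groups overlapped at each dose, and the retrocopy Psme2b shares much of its sequence.

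Psme3, which encodes PA28 gamma, the nuclear activator, was the only activator called for the antibody. It had 46.6, 47.5 and 48.4 nRPKM without beads with anti-Ox40, against 47.1, 48.0 and 48.0 with control Ig. It had 68.5, 74.1 and 68.7 nRPKM at low beads with anti-Ox40, against 57.7, 70.1 and 61.1, and at high beads 116, 107 and 103 against 95.2, 82.9 and 88.5. At high beads the anti-Ox40 libraries all lay above the control Ig ones (log2 0.29, SE 0.07, limma adjusted p = 0.00466), and at low beads control Ig replicate 2 overlapped them. Psme4 had 16.7 to 17.02 nRPKM without beads with anti-Ox40, against 15.9 to 17.1 with control Ig. At low beads it had 16.5, 16.8 and 16.2 nRPKM with anti-Ox40, against 17.5, 17.5 and 17.1, and at high beads 22.2, 21.9 and 22.1 against 21.3, 21.2 and 20.6. It was the 1 gene whose anti-Ox40 libraries all lay below those of control Ig at low beads (log2 -0.07, not called). The inhibitor gene Psmf1 stayed between 13.2 and 20.3 nRPKM, at 18.4 ± 0.695 with anti-Ox40 and 18.2 ± 0.445 with control Ig at high beads (SD, n = 3).

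No proteasome gene was called for anti-Ox40 without beads. There 0 of 48 passed the limma test (0.138% of all genes were, in either direction), 1 had an unadjusted p under 0.05, and the median log2 difference was 0.00. With low beads 16 of 48 were called higher and 0 lower, by limma with Benjamini-Hochberg adjustment, against 6.15% of all genes higher and 3.44% lower. The median log2 difference of the 48 was 0.17, against 0.00 over all genes. With high beads 14 were called higher and 0 lower, against 14.4% and 11.6% of all genes, and the median was 0.13, against 0.00. With median-ratio scaling 14 were higher and 2, Psmb9 and Psme2b, were lower (limma adjusted p = 0.0289 and 0.0448). Libraries of the antibody groups did not overlap for 16 genes higher and 1 lower at low beads (13.1% and 12.8% of all genes) and for 28 higher and 1 lower at high beads (23.8% and 19.5%).

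The 16 calls at low beads depended on which libraries and models were used. They became 35 without control Ig replicate 2, which had the highest proteasome values of its group, and 0 without control Ig replicate 1 or 3. Leaving out replicate 2 keeps as controls only the libraries with the higher Malat1 and Xist levels. Without the replicate with the highest B cell markers in each group there were 0 at low and 5 at high beads. That setting has fewer libraries per group, and it called 24 of all genes at low and 1376 at high beads. The main fit called 804 genes higher and 450 lower at low beads, and 1877 and 1520 at high beads. The B cell list (8 of 8 genes in the table, 0 of them at 0 in all 3 libraries of any group) summed to 6.02 to 43.3 nRPKM with anti-Ox40 and 6.40 to 51.3 with control Ig at low beads, and its part in the result was not tested. With a fit to only the compared groups there were 0 at low beads, and with nuclear RNA as a covariate 3. Of all genes, 45 and 251 were called in these fits. The summed nuclear RNA list (6 genes) was 444 to 476 nRPKM with anti-Ox40 and 378 to 794 with control Ig at low beads. Transcripts of lung epithelium (6 of 6 genes in the table) were also unequal at low beads, at 39.2 to 219 nRPKM with anti-Ox40 and 0.014 to 26.3 with control Ig, and their part was not tested.

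At low beads the calls took in core and 19S alike. Of all genes, 6.15% were called higher. Among the constitutive core genes 7 of 14 rose (5 of 7 alpha and 2 of 7 beta), and among 19S genes 9 of 17 (4 of 6 base ATPases, 2 of 3 other base and 3 of 8 lid genes). None of 3 immunoproteasome genes, 7 chaperones and 5 activator or inhibitor genes was called. The 4 largest were Psmb2, Psmb7, Psma6 and Psmd1. Psmb2 had 98.7, 108 and 108 nRPKM with anti-Ox40, against 78.4, 94.0 and 80.9 with control Ig, without overlap (log2 0.31, SE 0.06, adjusted p = 0.00876). Psma6, an alpha subunit, had 81.9, 85.8 and 87.7 nRPKM against 64.9, 78.6 and 65.8 (0.29, SE 0.06, adjusted p = 0.0183). Psmd1, a scaffold of the base, had 41.8, 43.8 and 40.7 nRPKM against 32.4, 38.8 and 33.5 (0.27, SE 0.06, adjusted p = 0.023). In all 4, replicate 2 was the highest control Ig library and lay closest to the anti-Ox40 range. The other 12 rose by 0.19 (Psmc5) to 0.26 (Psmc2).

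At high beads other lists also separated the antibody groups. Nuclear RNA summed to 192 to 218 nRPKM with anti-Ox40 and 248 to 294 with control Ig, platelet markers to 22.1 to 30.8 and 42.5 to 51.8, and CD4 T cell markers to 1352 to 1411 and 1548 to 1616. With nuclear RNA as a covariate 11 proteasome genes were called higher and 3 lower at high beads, with a median of 0.067. Psmb8 (-0.14, limma adjusted p = 0.0344) and Psmb9 (-0.27, adjusted p = 0.00547) were then among those called lower. The part of the platelet and CD4 T cell markers was not tested.

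At high beads the calls fell mainly on the 19S particle. Among 19S genes 11 of 17 rose (4 of 6 base ATPases, 2 of 3 other base and 5 of 8 lid genes, median log2 0.20), and among constitutive core genes 1 of 14, Psmb7 (median 0.09). Of all genes, 14.4% were called higher. All 14 core genes had positive values, and 6 of them did not overlap, against 16 of 17 for 19S and 23.8% of all genes. A difference between core and 19S was not tested. No alpha gene was called, with a median of 0.07, and the 3 immunoproteasome genes had negative values (Psmb8 -0.08, Psmb10 -0.10, Psmb9 -0.19), none of them called. A change in this distribution between the doses was not shown, since the difference of the antibody effect, high minus low beads, called 0 of 48 genes (3.17% of all genes in either direction), with 1 at an unadjusted p under 0.05. The 4 largest rises were those of Psmd7, Psmd8, Psme3 and Psmd12.

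Psmd7, the lid subunit that pairs with Psmd14, had 107, 101 and 93.3 nRPKM at high beads with anti-Ox40, against 85.6, 78.4 and 75.7 with control Ig (log2 0.32, SE 0.07, limma adjusted p = 0.0030). Psmd8, another lid subunit, had 153, 141 and 141 nRPKM against 122, 113 and 120 (0.29, SE 0.07, adjusted p = 0.0039). Psmd12, a lid scaffold, had 77.0, 78.4 and 75.0 nRPKM against 63.8, 63.8 and 62.2 (0.28, SE 0.06, adjusted p = 0.0033). All anti-Ox40 libraries lay above all control Ig libraries for these genes. The ATPase genes Psmc5 (0.25, adjusted p = 0.0021), Psmc6 (0.23), Psmc2 (0.21) and Psmc4 (0.20), the base genes Psmd1 (0.25) and Psmd4 (0.18), the lid genes Psmd3 (0.22) and Psmd11 (0.18) and the chaperone gene Psmd5 (0.20) were also called. Of the 14 calls, those of Psmc5, Psmd5, Psmd7, Psmd8 and Psmd12 held in every alternative setting run, with the others lost in at least 1. There were 8 calls without anti-Ox40 replicate 1 or control Ig replicate 2 of the high-bead groups. The comparisons of antibody and bead dose share libraries, so their values are given side by side.

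**Figure D4:**
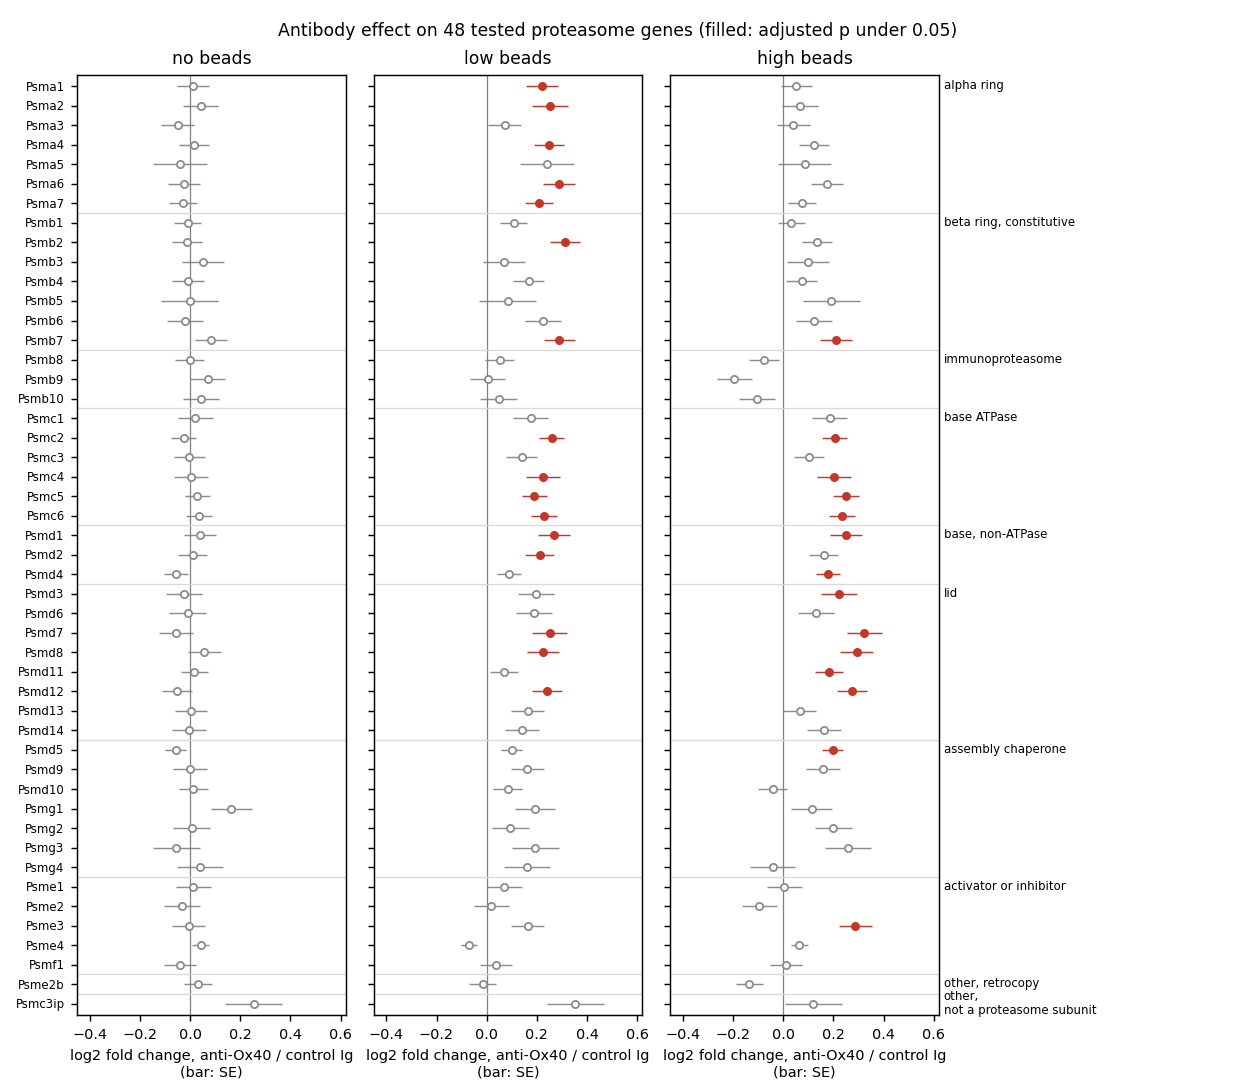
Log2 fold change of nRPKM + 1, anti-Ox40 over control Ig, for the 48 tested genes by role without beads, at low and at high beads; bars are SE, filled red points have a limma adjusted p under 0.05. No point is filled without beads, 16 are at low beads and 14 at high beads, where the immunoproteasome genes lie left of 0.

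The antibody effect itself was larger at high than at no beads for 5 genes, by the limma interaction test. These were Psmd7 (0.38, SE 0.10, adjusted p = 0.0235), Psmd12 (0.33, SE 0.08, adjusted p = 0.0237), Psmd5 (0.26, SE 0.06, adjusted p = 0.0158), Psmd4 (0.23, SE 0.07, adjusted p = 0.0388) and Psmc2 (0.23, SE 0.07, adjusted p = 0.0492). Of all genes, 6.40% were called in this direction. The 5 calls became 1 without control Ig no-bead replicate 2 and 0 without the replicate with the highest B cell markers in each group. In the latter setting only 5 of all genes were called in either direction. For low minus no beads 0 of 48 genes were called (0.268% of all genes in either direction), with 19 at an unadjusted p under 0.05, and 23 were called without control Ig low-bead replicate 2. Psmd4 and Psmd5 are among the genes with the smallest bead response under control Ig. Psmd5 had 23.9, 23.9 and 23.8 nRPKM without beads with anti-Ox40, against 25.4, 25.0 and 24.2 with control Ig. At high beads it had 33.5, 33.5 and 31.5 nRPKM with anti-Ox40, against 29.5, 28.4 and 27.5. The antibody groups did not overlap at either dose, with anti-Ox40 lower without beads and higher at high beads. The difference without beads was not called, and there 2 of 48 genes lay lower and 2 higher without overlap.

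Some genes that act with the proteasome but are named otherwise were also called for the antibody. Of all genes, 14.4% were called higher and 11.6% lower with anti-Ox40 at high beads, and 6.15% and 3.44% at low beads. Of 8 tested partners, 4 were higher and 0 lower at high beads, 3 higher at low beads and 0 called without beads. Uchl5, a deubiquitinase that docks on the 19S base, had 64.8, 64.4 and 60.7 nRPKM at high beads with anti-Ox40, against 46.2, 44.0 and 46.0 with control Ig (log2 0.47, SE 0.08, limma adjusted p = 0.000963), with no overlap. Txnl1, a thioredoxin-like 19S partner (0.21), the deubiquitinase Usp14 (0.20) and AI314180 (0.12), an older symbol of Ecpas, an adaptor between core and 19S, rose as well. Pomp, the chaperone that drives core maturation, showed the largest bead response of the list with control Ig, with 162 ± 4.83 nRPKM at high and 40.2 ± 1.66 without beads (log2 1.98). With anti-Ox40 its response (2.06) was second to that of Uchl5 (2.33). Adrm1, a ubiquitin receptor, was the 1 partner lower at high against no beads with control Ig (-0.32). Of 19 ubiquitin-pathway genes, 8 rose with anti-Ox40 at high beads and 0 fell, among them the activating enzyme Uba1 (0.32) and the shuttle genes Ubqln1 (0.29), Rad23b (0.28) and Ubqln4 (0.26). At low beads 3 rose, and without beads 0 were called.

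Among 16 tested genes that control proteasome genes, 5 rose and 3 fell with anti-Ox40 at high beads (14.4% and 11.6% of all genes did), 1 rose and 1 fell at low beads, and 0 were called without beads. Nfe2l1, the transcription factor known to raise proteasome genes when proteasome activity is short, had 44.4, 38.6 and 38.6 nRPKM at high beads with anti-Ox40, against 31.2, 27.9 and 27.6 with control Ig. These did not overlap (log2 0.47, SE 0.07, limma adjusted p = 0.000172). Its antibody effect differed between high and no beads (0.49, adjusted p = 0.00627). Mafk, a small partner of Nfe2l1, rose too (0.27). In the other direction Ngly1, the deglycosylase that is known to activate Nfe2l1, had 12.03, 13.5 and 12.5 nRPKM with anti-Ox40, against 16.4, 17.3 and 16.5 with control Ig (log2 -0.38, adjusted p = 0.00022). Bach1, a repressor that competes for the antioxidant response element, was lower as well (-0.24).

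Class I antigen processing and interferon genes included members that were lower with anti-Ox40. Of 12 class I genes, 2 rose and 4 fell with anti-Ox40 at high beads (14.4% and 11.6% of all genes did), 2 rose and 1 fell at low beads and 0 were called without beads. Tap1, the neighbour of Psmb9, had 131, 142 and 129 nRPKM at high beads with anti-Ox40, against 167, 173 and 177 with control Ig, without overlap (log2 -0.36, SE 0.05, limma adjusted p = 0.000187). Nlrc5, the transactivator of MHC class I genes, had 24.3, 26.2 and 23.8 nRPKM against 35.4, 37.2 and 36.2 (-0.53, SE 0.09, adjusted p = 0.000493). The class I folding chaperones Canx (0.30) and Calr (0.19), which also serve other proteins of the endoplasmic reticulum, were the 2 that rose. Of 15 interferon-response genes 1 rose and 7 fell at high beads, beside the same shares of all genes, and 0 were called at low beads and without beads. Irf1, a factor known to act on Psmb9 and Tap1, had 64.5, 69.4 and 60.6 nRPKM at high beads with anti-Ox40, against 77.7, 77.2 and 81.0 with control Ig (-0.28, SE 0.05, adjusted p = 0.00058). The GTPase gene Irgm1 was also lower (-0.48), and the ubiquitin-like modifier Isg15 was higher (0.55).

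**Figure D5:**
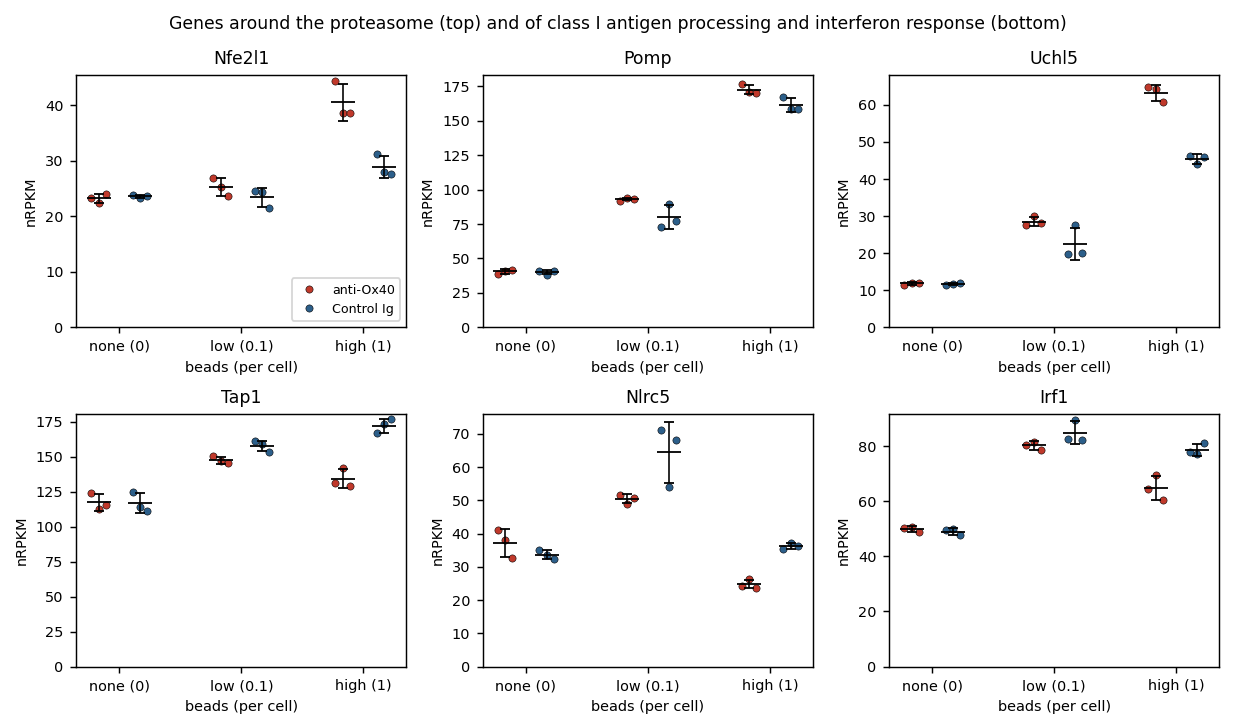
Levels in nRPKM (linear axes from 0) of Nfe2l1, Pomp and Uchl5 (top) and of Tap1, Nlrc5 and Irf1 (bottom) by bead dose; points are libraries, bars mean ± SD of 3, anti-Ox40 (red) left of control Ig (blue). At high beads the anti-Ox40 libraries lie above those of control Ig in the top row and below them in the bottom row.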

How the data were processed

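RNA-seq values of 18 mouse CD4 T cell libraries were used as the authors deposited them, as normalised RPKM (nRPKM) in 1 table. The submitters' processing notes name GSNAP as a tool and GRCm38 as the build. For the aligner version, annotation, counting and scaling, details were not given in the sources used here. Low values were whole multiples of a fixed unit per gene and library, which puts 1 nRPKM over 1 kb at 26.4 to 46.0 reads.

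Values were analysed as log2(nRPKM + 1), which understates changes of low genes. Genes with at least 1 nRPKM in at least 3 libraries (13075) were fitted with limma 3.58.1 in R 4.3.3 as 6 group means with an intensity trend, and 12 contrasts were adjusted over all genes tested (Benjamini-Hochberg, two-sided, called under 0.05). The script was tested on simulated data. Python 3.11.15, pandas 2.3.3, numpy 2.4.6 and matplotlib 3.10.9 did the rest. Alternatives changed pseudocount, filter, scaling, trend, fitted samples and covariates, and left out single libraries.

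Every proteasome gene could be named. Values per library are given for the catalytic, immunoproteasome, activator and inhibitor genes and for the genes with the largest changes, and pathway genes were named by smallest adjusted p, of which 1 is not reported here. The members and lists were chosen with earlier results of these data known. Shared windows are 50-base stretches of a transcript that occur in another annotated gene. Promoter windows are from RefSeq (GRCm38.p6).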

Additional observations from a re-analysis of the deposited data

Results flagged for a closer look

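For 5 of 48 tested proteasome genes the effect of anti-Ox40 over control Ig differed between high and no beads by the limma interaction test (adjusted over all genes). Of all genes, 6.40% were called higher in this test. These calls depended on the libraries and models used, as given below. The differences of the effect, high minus no beads, were 0.38 (log2) for Psmd7, 0.33 for Psmd12, 0.26 for Psmd5, 0.23 for Psmd4 and 0.23 for Psmc2, and in each the effect was positive at high beads and negative without beads. Psmd7 and Psmd5 had anti-Ox40 libraries that all lay below those of control Ig without beads and all above them at high beads. Without beads neither difference was called, and 2 of 48 genes lay lower and 2 higher without overlap. The share of all genes that did so without beads is not given here, so a reversal of the effect was not shown.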

How the results depend on the processing

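Counts of proteasome genes called for low or high against no beads, and for high against low beads, stayed within 1.5 times their value in every alternative. The antibody count without beads was always 0, and those with beads moved. At low beads the 16 calls became 7 with no filter, 0 when no other group was fitted, 3 with a nuclear RNA covariate and 0 without the highest B cell library of each group. Of all genes, 557, 45, 251 and 24 were called in these settings, in that order. With single libraries left out the 16 ranged from 0 to 35. At high beads the 14 became 5 without the highest B cell libraries and ranged from 8 to 16. The 5 differences of the antibody effect, high minus no beads, became 2 with no filter, 3 with no trend, 9 when no other group was fitted, 2 with a nuclear RNA covariate and 0 without the highest B cell libraries. Of all genes, 966, 1325, 1620, 870 and 5 were called in these settings, in that order. With single libraries left out the 5 ranged from 1 to 6. The 0 for low minus no beads ranged from 0 to 23, and the 0 for high minus low beads from 0 to 4, the 23 and the 4 without control Ig low-bead replicate 2. The cause was not tested. Psmb8 at high against low beads with control Ig reversed to -0.014 with equal-sum scaling and -0.035 with a nuclear RNA covariate, and Psmb10 at high against no beads with anti-Ox40 to -0.025 and -0.052. With a pseudocount of 1 on both genes the Psmb8 to Psmb5 ratio differed by 0.071 (low against no beads) and -0.24 (high against no beads) with control Ig and by -0.51 (high against no beads) with anti-Ox40. Replicate numbers are in accession order, and no label says that they pair libraries. Same-numbered libraries correlated at -0.158 to 0.354, and 18 of 18 correlated best with their own number, a hint of a shared source from the data and not from the design. With the replicate number as a block, 15 genes were higher and 2 lower for the antibody at high beads, the 2 being Psmb9 (limma adjusted p = 0.0464) and Psme2b (0.043), 16 were called at low beads and 5 for high minus no beads. Psma8 and Psmb11, at most 0.399 and 0.03 nRPKM in any library, fell below the filter and were untested.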
